A study of Mus musculus with 38 samples.

Results

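Gene expression was followed over time in stromal vascular cells of epididymal fat from mice on a high fat diet. The series holds 38 one-colour Agilent mouse arrays, and the 10 arrays titled HFC, from day 6 to week 18, make up this time course. Each array is named here by its time point, as D6, D10 and D14 for days and W0, W3, W6, W9, W12, W15 and W18 for weeks. Elapsed day is the day label, or 14 days plus 7 days for each week, so D14 and W0 share day 14 and W18 is day 140. The 4 arrays of D6 to W0 are called early and the 6 arrays of W3 to W18 late. All animals were C57BL/6J mice, weaned at 3 to 4 weeks of age and then put on their diets. The HFC diet had 60% of its calories from fat and increased sucrose, and carried none of the botanical formulation that other groups of the series received. The LFC diet, with 10% of calories from fat, was sampled at the same 10 time points with 1 array each and is used as the background of time without the high fat diet. According to the labels 5 animals of a group were sacrificed every 3 weeks, without saying how many of them went into 1 array. Every time point of a diet is 1 array, so the spread below is that between arrays of different time points, and p-values measure late against early arrays relative to that spread.

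Stromal vascular cells are the cells of fat tissue other than the adipocytes: macrophages and other immune cells, fibroblast-like progenitors, endothelial cells and mesothelium. The labels describe them as infiltrating macrophages. In mice the weeks after weaning are a time of growth in which fat depots gain cells and lay down extracellular matrix, and several imprinted growth genes are switched down in that period. A high fat diet enlarges the epididymal depot and is known for drawing macrophages into it. Time on the diet and age of the animals cannot be told apart within the 10 HFC arrays. In RNA from a mixture of cells, fewer cells of a type and less RNA per cell cannot be told apart either.

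The 75th percentile of the processed signal, a measure of array brightness, ran from 493.4 (W18) to 1983 scanner units (W0), and between 62.6% (W3) and 91.6% (W12) of probes were marked well above background. W12 also had 4850 spots marked as outliers by the scanner software, against 922 or fewer on the other HFC arrays, and those values were left out. D6, D10 and D14 were scanned after all other HFC arrays, whereas W0 was scanned second, and HFC and LFC arrays of a time point were scanned on the same day. Level below means the log2 processed signal minus the 75th percentile of the same array, so that 0 is the brightness at that percentile. All 13 pan-macrophage genes were well above background on all 10 HFC arrays. So were all 14 adipocyte, 12 endothelial and 14 stromal progenitor genes listed. Being above background therefore does not tell macrophages from other cells in these samples. D14 and W0, of the same elapsed day, differed by at least 2-fold in 21.5% of probes (7053 of 32826). Early arrays differed from each other in a median of 25.0% of probes over 6 pairs, early from late arrays in 31.7% over 24 pairs, and late arrays from each other in 38.1% over 15 pairs. In this scaling the late arrays were at least as far from one another as from the early ones, with W6 and W9 the farthest. Under normexp background correction the order of the medians turned, with 38.8% for early-late pairs and 30.6% for late pairs, and W6 and W9 differed from each other in 14.5% of probes, against 40.8% here. The smallest distances within the late arrays were between W3 and W15 (17.3%) and between W12 and W18 (22.2%).

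**Figure D1:**
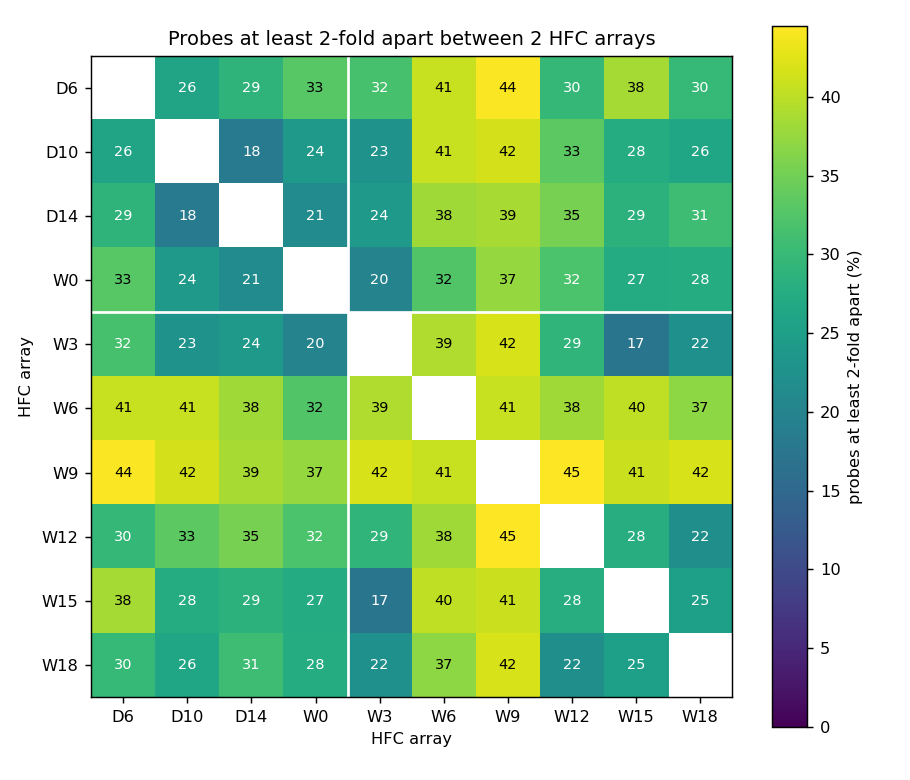
Percentage of probes at least 2-fold apart for each pair of the 10 HFC arrays, in time order on both axes, with white lines between early and late arrays. The rows of W6 and W9 hold most of the values near 40%, and D10 with D14 and W3 with W15 are the closest pairs.

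The first comparison asked which transcripts differed between the first 2 weeks and weeks 3 to 18 of high fat feeding. With limma and Benjamini-Hochberg adjustment 0 of 32854 probes passed an adjusted p of 0.05 (0%), also 0 by an ordinary test of each probe alone, and the smallest limma adjusted p was 0.0781. At an unadjusted p below 0.05, 1135 probes were higher late (3.45%) and 2154 lower (6.56%). The levels of early and late arrays did not overlap at all in 333 probes that were higher late (1.01%) and in 684 that were lower (2.08%). Ordered by elapsed day, with exact rank tests, 0% passed after adjustment (smallest adjusted p 0.181), while 1390 probes had a rising order (4.23%) and 1810 a falling one (5.51%) at an unadjusted exact p below 0.05. A straight line over elapsed day passed in 0% of probes by limma (smallest adjusted p 0.439). The number of calls for late minus early depended on scaling: quantile normalization gave 221 (5 higher and 216 lower), and normexp background correction gave 116 (111 higher and 5 lower) while shifting the median of all probes from 0.00 to 0.41. Leaving out W0 gave 148 calls, 147 of them lower. Since no probe passed in the main fit, differences below are given as values, with the count of members at an unadjusted p below 0.05 read against the percentages above.

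Among transcripts of dividing cells, the mitosis genes had their highest mean at D6 and their lowest means at W15 and W18. Mitosis genes are switched on together in the later part of the cell cycle, and DNA replication genes in its earlier part, at the entry to S phase. Of the 21 mitosis genes listed, 17 were lower late at an unadjusted p below 0.05 and none was higher, beside 6.56% and 3.45% of all probes. The median of late minus early over the list was -1.32 log2, against 0.00 over all probes. Early and late levels did not overlap for 4 of the 21, Cdk1, Ccnb2, Cenpf and Kif20a. Promoters of many mitosis genes are known to carry a CHR element (core TTTGAA) downstream of CCAAT boxes, the binding site of NF-Y, whereas E2F sites such as TTTCGCG belong to genes of S phase entry. The promoters of the 3 members of smallest p are shown because these genes lay lower together. Each runs from 250 bases before to 50 bases after the annotated start (RefSeq, GRCm38.p6, 5′ to 3′ on the gene's strand), and capitals mark these 3 motifs on either strand, so that ATTGG is a CCAAT box of the other strand.
Cenpf, chr1:189688037-189688336, minus strand: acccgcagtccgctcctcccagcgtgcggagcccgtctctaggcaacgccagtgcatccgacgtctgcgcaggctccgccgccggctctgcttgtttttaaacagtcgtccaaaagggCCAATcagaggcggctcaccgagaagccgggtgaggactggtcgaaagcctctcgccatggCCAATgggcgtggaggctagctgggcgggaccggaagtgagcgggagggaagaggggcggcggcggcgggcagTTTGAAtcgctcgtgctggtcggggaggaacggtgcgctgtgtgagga
Cdk1, chr10:69352863-69353162, minus strand: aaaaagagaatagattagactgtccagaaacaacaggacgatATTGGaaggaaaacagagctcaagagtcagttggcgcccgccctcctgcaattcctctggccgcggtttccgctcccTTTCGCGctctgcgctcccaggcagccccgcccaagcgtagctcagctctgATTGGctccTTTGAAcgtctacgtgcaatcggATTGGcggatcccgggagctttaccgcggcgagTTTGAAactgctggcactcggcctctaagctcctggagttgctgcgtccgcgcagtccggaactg
Ccnb2, chr9:70421505-70421804, minus strand: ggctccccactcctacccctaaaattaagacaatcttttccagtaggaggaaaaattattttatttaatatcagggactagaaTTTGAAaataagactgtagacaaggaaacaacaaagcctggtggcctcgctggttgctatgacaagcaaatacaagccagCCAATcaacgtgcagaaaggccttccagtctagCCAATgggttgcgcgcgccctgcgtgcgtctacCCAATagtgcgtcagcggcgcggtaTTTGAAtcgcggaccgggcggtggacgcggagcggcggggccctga

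Cenpf held 1 TTTGAA and 2 CCAAT. Cdk1 held 2 TTTGAA, 3 CCAAT and 1 TTTCGCG. Ccnb2 held 2 TTTGAA and 3 CCAAT, the starts of its CCAAT copies lying 33 bases apart both times. Of the 17 mitosis genes with a promoter in the table, 12 held TTTGAA, 14 CCAAT and 1 TTTCGCG. Among the 16 DNA replication genes with one, 3 held TTTGAA, 11 CCAAT and 4 TTTCGCG. In all 32851 promoters of the same length the shares were 17.9%, 37.4% and 0.849% for the CHR core, the CCAAT box and the E2F motif. A CHR core and a CCAAT box can share a base, and no copies did so in the 3 promoters shown. A match in a window of this length is a description of sequence and not a measured binding site.

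Cdk1, the kinase that drives cells into mitosis, had levels of 0.02 at D6, -0.84 at D10, -1.09 at D14 and -1.18 at W0 among the early arrays. In the late arrays its levels were -2.49 at W3, -1.79 at W6, -2.06 at W9, -2.61 at W12, -4.30 at W15 and -3.82 at W18. D6 was highest, W15 and W18 were lowest, and no late array reached an early one. The difference was -2.07 (SE 0.51), a 4.21-fold lower mean, with a limma adjusted p of 0.176. Cenpf, a centromere protein, was at 0.46 at D6, -0.09 at D10, -0.38 at D14 and -0.82 at W0, and late arrays had a lowest level of -2.42 (W18), a median of -1.57 and a highest of -1.04 (W12). Its late minus early difference was -1.47 (SE 0.34), limma adjusted p 0.154. Ccnb2, a cyclin B that activates Cdk1, was at 2.68 at D6, 1.82 at D10, 1.63 at D14 and 1.18 at W0. Late arrays had a lowest level of -0.94 (W15), a median of 0.39 and a highest of 1.07 (W6), a difference of -1.60 (SE 0.44). W6 and W12 stood closest to the early arrays for this gene, and W15 and W18 farthest.

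Kif20a, a kinesin of cell division, differed by -1.52 (SE 0.49) without overlap of the periods. Ccnb1, the other B cyclin, differed by -1.86 (SE 0.51), with W6 (-1.20) above W0 (-1.68). By rank, 17 of the 21 mitosis genes had a falling order over elapsed day at an unadjusted exact p below 0.05, beside 5.51% of all probes. Further cell division genes outside the list were among the genes named for their slope or rank order. Ect2, which directs the cleavage furrow, ran from -1.15 to -0.62 early and from -3.32 to -1.88 late. Nek2, a kinase of the centrosome, had a Spearman's rho with elapsed day of -0.96 over 10 arrays, and so did Cenpk, a kinetochore protein (both exact adjusted p 0.207). The mean level of the 18 mitosis genes measured on all 20 arrays was 0.18 at D6, -0.52 at D10, -0.80 at D14 and -1.07 at W0 early. The same mean in the late arrays was -1.75 at W3, -0.79 at W6, -1.62 at W9, -1.46 at W12, -2.76 at W15 and -2.68 at W18, so W6 lay above W0 and D14, and the periods overlapped in the mean although they did not for 4 single genes.

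DNA replication genes showed smaller differences in the same direction. Their mean level over 19 genes was highest at D6 (0.79) and lowest at W9 (-0.72). At W6 (0.12) it lay above D10 (0.05) and W0 (-0.03), so the periods overlapped in this mean. Of 22 genes, 8 were lower late at an unadjusted p below 0.05 and 0 higher, and 21 of 22 had a negative difference, with a median of -0.72. The count of 8 was 5 without D6, 11 without W0 and 12 without W6. With W0 as the only early array 21 of 22 genes were lower late, with a median of -0.33. Pcna, the sliding clamp of the replication fork, went from 4.07 at D6, 3.69 at D10, 3.5 at D14 and 3.47 at W0 to a lowest level of 2.61 (W15), a median of 3.24 and a highest of 3.45 (W6). Its periods did not overlap, yet the difference of -0.55 (SE 0.26) did not reach an unadjusted p of 0.05. Chaf1b, which puts histones on new DNA, differed by -1.11 (SE 0.36) and Dscc1, a clamp loader subunit, by -1.32 (SE 0.36), also without overlap. Gins2 of the replicative helicase differed by -1.35 (SE 0.36), the nuclease Exo1 by -1.42 (SE 0.39) and the ribonucleotide reductase subunit Rrm2 by -1.31 (SE 0.36), with limma adjusted p of 0.213, 0.214 and 0.22. The strictest falling order of all probes named was that of Rfc4, a clamp loader subunit, with levels of 0.62 at D6, 0.23 at D10, 0.14 at D14, 0.09 at W0, 0.09 at W6, 0.06 at W9, -0.02 at W12, -0.35 at W15 and -0.57 at W18. Its rho was -0.996 over 9 arrays (exact adjusted p 0.181). Smarce1, a subunit of a chromatin remodelling complex, had a rho of -0.985 over 10 arrays on a small range, from 2.42 at D6 to 1.56 at W15. Genes of cell cycle arrest, which hold cells out of division, had no such values: of 10 0 differed at an unadjusted p below 0.05 in limma in either direction, with a median of 0.12.

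**Figure D2:**
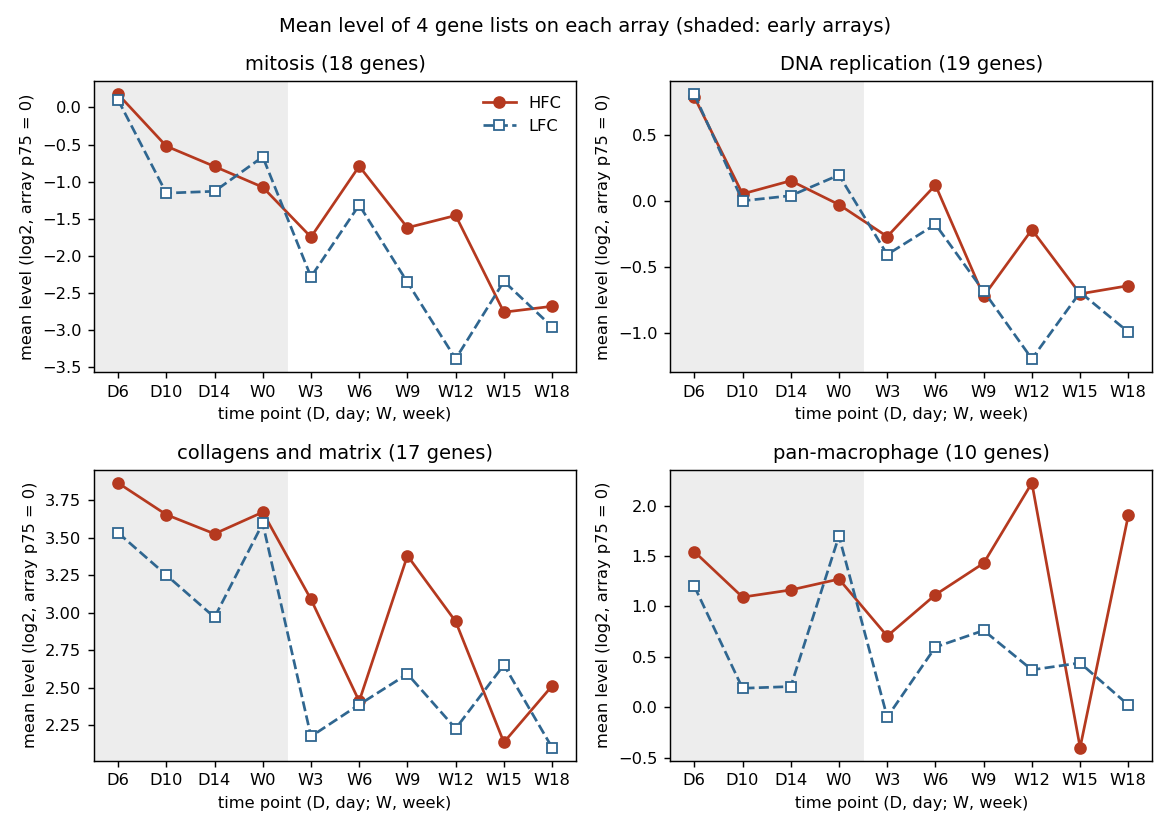
Mean level of mitosis, DNA replication, matrix and pan-macrophage genes (log2, 0 at the array's 75th percentile) at each time point in HFC (filled) and LFC (open), over the genes measured on all 20 arrays; early arrays are shaded. The 2 cell cycle lists start highest at D6 and end low in both diets. Matrix genes are lower after W0 in both diets, and pan-macrophage genes have no such order.

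The LFC arrays were used to ask whether the same differences were present without the high fat diet. In LFC 16 of 20 tested mitosis genes were lower late at an unadjusted p below 0.05, beside 3.61% of all LFC probes, with a median of -1.82, and 6 of 21 did not overlap, beside 0.66%. Of the DNA replication genes 11 of 22 were lower in LFC. The difference between the diets in late minus early was tested directly: 0 genes of either list passed in limma, also at an unadjusted p below 0.05, beside 7.89% of all probes in either direction. For Cdk1 the diets differed by 0.32 (SE 0.55, limma adjusted p 0.869). HFC and LFC arrays of a time point share age, elapsed time and scan day, so these cannot be told apart from one another in either diet. W0 was scanned among the late arrays. With W0 as the only early array the mitosis median was -0.86, and 19 of 20 tested genes were lower late. That setting has no spread among early arrays, so it gives direction only and does not settle the part of scan order. Without D6, 7 of 21 mitosis genes were below an unadjusted p of 0.05, and without W15 or W18 10 of 21 in each case. Under normexp 10 of 21 were lower late at an unadjusted p below 0.05 in limma, beside 2.16% of all probes. In sign, 17 of 21 stayed lower late under normexp, or 18 of 21 relative to the shifted median of all probes.

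Extracellular matrix genes were lower in the later weeks than up to W0, and elastin had the largest difference of them. Eln encodes elastin, the core of elastic fibres, which in most tissues is made in early life. It stood at 2.88 at D6, 2.34 at D10, 3.23 at D14 and 2.41 at W0. In the late arrays it was at 0.95 at W3, -0.45 at W6, -0.07 at W9, -1.07 at W12, -0.14 at W15 and -0.70 at W18. No late array reached the lowest early one (D10), and W3 was the nearest. The mean went from 2.72 ± 0.42 (SD, n = 4) to -0.25 ± 0.69 (SD, n = 6), a difference of -2.96 (SE 0.39) or 7.79-fold, with a limma adjusted p of 0.0781, just short of the threshold. It passed under quantile normalization (limma adjusted p 0.0225), under normexp (0.0371) and without W0 (0.0304). Without W0 the early arrays left were those scanned last. Neither Eln nor any other probe passed with array brightness as a covariate, or when any 1 array other than W0 was left out. The smallest limma adjusted p of any probe was 0.109 with brightness, and from 0.0614 (without W3) to 0.270 (without D6) in those leave-outs. In LFC the Eln difference was -2.97, and the diets differed by 0.00 (SE 0.59). Mfap2, a microfibril protein that sits on elastic fibres and was picked after its values were seen, ran from 2.91 to 3.21 early. It was still at 2.66 at W3 and then between 0.84 and 1.30, with a limma adjusted p of 0.117. Mfap2 is among the 5 probes called lower late under normexp (limma adjusted p 0.0414), so that value is not separate support.

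Of 18 collagen and matrix genes 9 were lower late at an unadjusted p below 0.05 and 0 higher. The median difference was -0.98. Col6a2, a chain of the microfibrillar collagen VI, was at 2.38 at D6, 1.69 at D10, 2.36 at D14 and 2.18 at W0, and late arrays had a lowest level of -0.19 (W6), a median of 0.51 and a highest of 1.98 (W9). W9 (1.98) reached into the early range, so the periods overlapped. Col6a3, another chain, differed by -1.0 (SE 0.32) and Postn, a matricellular protein of growing and remodelling tissue, by -1.03 (SE 0.30), both without overlap. Adamts17, a secreted protease, had early levels of -0.66 at D6, -1.23 at D10, -1.91 at D14 and -2.21 at W0. Late arrays had a lowest level of -5.10 (W18), a median of -4.24 and a highest of -3.67 (W3), a difference of -2.77 (SE 0.38) with a limma adjusted p of 0.0781. The mean of the list did not overlap between the periods (3.53 to 3.87 early, 2.14 to 3.38 late). In LFC 7 of 18 were lower at an unadjusted p below 0.05, with a median of -0.78. This LFC count was 1 without LFC D6, 3 without LFC D10 and 4 without LFC W18, while 18, 17 and 18 of the 18 differences stayed negative. The HFC count was 6 without W0. With W0 as the only early HFC array 14 of 18 genes were lower late, with a median of -1.10. Markers of the adipose stromal progenitors that make much of this matrix gave a count of 0 of 14 at an unadjusted p below 0.05 in limma in either direction, with a median of -0.17.

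Imprinted growth genes, which are active before and shortly after birth, were lower late in 3 of 10 cases at an unadjusted p below 0.05, and none was higher. H19, a noncoding RNA of the imprinted locus it shares with Igf2, was at 0.13 at D6, -1.75 at D10, -1.84 at D14 and -3.94 at W0, with W0 already near the late arrays. Late arrays had a lowest level of -5.07 (W18), a median of -4.58 and a highest of -3.46 (W9), and the difference was -2.61 (SE 0.66), limma adjusted p 0.179. Mest, a marker of expanding fat in young mice, was at 2.66 at D6, 2.0 at D10, 1.72 at D14 and 2.30 at W0 and had a lowest level of -0.78 (W6), a median of 0.94 and a highest of 1.51 (W9) in the late arrays. Its periods did not overlap, with a difference of -1.46 (SE 0.43), and with W6 far below the other late arrays. Peg3, a zinc finger protein of the same group, differed by -1.80 (SE 0.48). Plagl1, a transcription factor, was higher at W9 (2.26) than on any early array and differed by -1.17 (SE 0.64). Igf2 itself, a growth factor, differed by -0.07 (SE 0.73). In LFC 3 of 10 were lower at an unadjusted p below 0.05, namely H19 with a difference of -3.13, Dlk1, an inhibitor of fat cell formation, with -1.43 and Ndn with -0.87. The LFC count was 0 without LFC D6 and 1 without LFC D10. In HFC it was 5 without W9. With W0 as the only early HFC array 7 of 10 genes were lower late, with a median of -0.29. Peg3 and Mest had LFC differences of -0.99 and -0.41. LFC Mest was highest at W9 (5.20) and W12 (4.24), both of them arrays with high adipocyte transcripts.

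**Figure D3:**
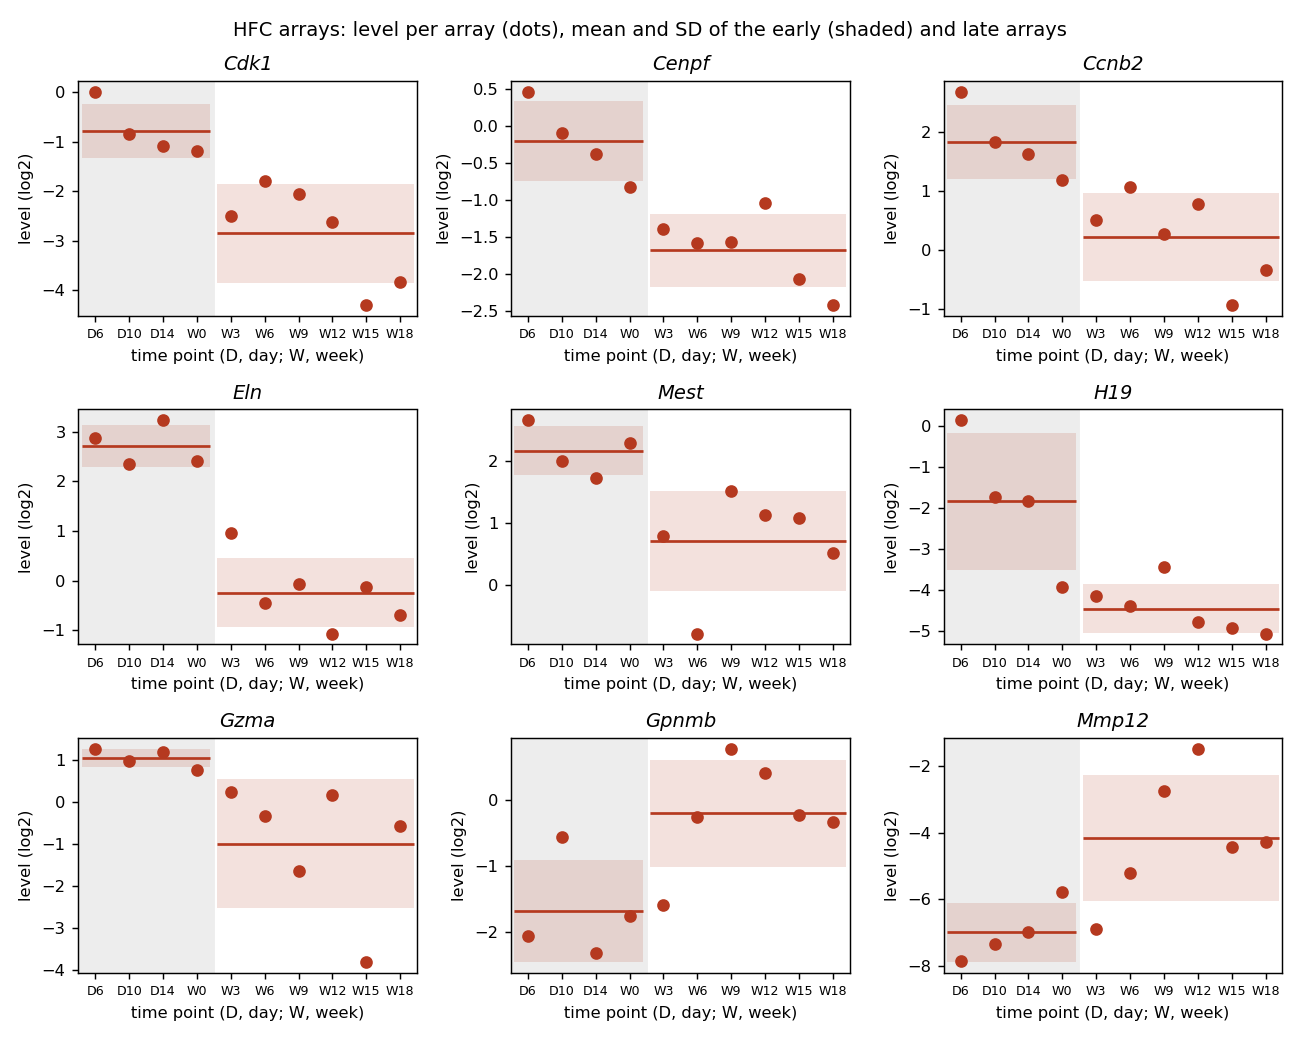
Level (log2) of 9 genes on each HFC array (dots), with lines at the mean and bands of 1 SD for the 4 early arrays (grey background) and the 6 late ones. Cdk1, Cenpf, Ccnb2, Eln, Mest and Gzma do not overlap between the periods, while H19 at W0, Gpnmb at D10 and Mmp12 at W3 lie in the range of the other period.

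The largest differences of the genes named were in transcripts of the male reproductive tract, most of which were higher on D6, D10 and D14 than on most later HFC arrays. Epididymal fat lies against the epididymis and testis. Of the 10 genes of smallest p that were lower late, Cst9 and Pdha2 are known for expression in testis, and Adam5 for expression in male germ cells. Cst9, a cystatin-like protein, was at 0.36 at D6, 2.72 at D10, -0.56 at D14 and -4.24 at W0, and late arrays had a lowest level of -8.85 (W6), a median of -7.97 and a highest of -7.01 (W15). It was well above background on 4 of 4 early and 1 of 6 late arrays, and its difference was -7.51 (SE 1.07), limma adjusted p 0.0781. Pdha2, the testis form of a pyruvate dehydrogenase subunit, was at -4.23 at D6, -2.77 at D10, -2.68 at D14 and -4.93 at W0. Its late arrays had a lowest level of -8.82 (W6), a median of -8.02 and a highest of -7.05 (W15). Adam5, a sperm membrane protein, differed by -4.24 (SE 0.59). Cmtm2b, of a family of chemokine-like membrane proteins, was not well above background on any late array and was at least 21.4-fold higher early, the bound being set by the dimmest probe well above background on each late array. Likewise Ms4a20 was at least 11.9-fold and Gm16506 at least 4.77-fold higher early. Under normexp late minus early was positive for Ms4a20 (0.20), Gm16506 (0.98) and Lypd9 (0.43), and 0.00 for Pdha2, so the direction of these 4 depends on the background correction. Lypd9 and LOC100045554 differed by -4.30 (SE 0.58) and -5.00 (SE 0.72). All 10 had limma adjusted p of 0.0781. Cst9, Cmtm2b, Ms4a20 and Gm16506 met the filter through the early arrays alone. Their p-values set signal against values near background and are not read as support here.

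Ldhc, the lactate dehydrogenase of sperm, was at 2.97 at D6, 4.27 at D10, 4.01 at D14 and 0.55 at W0 and then at -0.24 at W3, -4.77 at W6, -7.36 at W9, -2.62 at W12, -1.41 at W15 and -1.66 at W18. Its periods did not overlap, and the difference was -5.96 (SE 1.31), limma adjusted p 0.138. Zpbp2, a protein of the sperm acrosome, ran from -1.63 (W0) to 0.48 early and from -3.37 to -1.78 late, with a rho of -0.96. Sperm protamines and transition proteins gave another picture, since over the list of 10 spermatid and sperm genes 2 had an unadjusted p below 0.05, both lower, and Tnp1 at W3 (0.77) lay above 3 of 4 early arrays. The list's median difference was -1.33, and under normexp 4 of the 10 were higher late. Epididymis genes were lower late in 5 of 11 tested at an unadjusted p below 0.05, with 0 higher. That count rested on single arrays: it was 1 without D6, 0 without D10, 1 without D14 and 9 without W3. It was 3 without W6, 2 without W9 and 2 without W18. With W0 as the only early array 9 of 12 tested genes were lower late, and the list's median was -1.66. Of these genes 1 was well above background on every array. Gpx5, an epididymal glutathione peroxidase, was at 6.02 at D6, 6.09 at D10, 5.29 at D14 and -2.68 at W0. It was at 5.17 at W3, -7.69 at W6, -8.33 at W9, -1.41 at W12, -3.74 at W15 and -7.26 at W18 in the late arrays. W0 thus stood with the late arrays, and W3 with the early ones. Lcn5, an epididymal lipocalin, followed the same arrays but was also high at W15 (2.46).

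Differences of the other named epididymis genes were -6.22 (SE 2.53) for Spag11b, a defensin-like gene, and -4.57 (SE 1.87) for Rnase12, and the limma adjusted p of all 4 named ran from 0.369 to 0.453. On LFC arrays these transcripts were high at other times. LFC Gpx5 was at 6.50 at D14 and at -6.02 at D6, and LFC Ldhc was highest at W6 (1.59) and W3 (-0.07). Late minus early differed between the diets by -7.60 (SE 1.15) for Cst9, -5.23 (SE 0.84) for Pdha2 and -2.90 (SE 0.53) for Zpbp2, each with a limma adjusted p of 0.39, the smallest of that comparison. Cypt4 differed by -5.35 (SE 0.89) at the same adjusted p. Normexp turned the sign of the diet difference for Pdha2 (0.10) and Cypt4 (0.090). Whether the epididymis on or beside the fat pad was taken with some samples was not tested, and the epididymis list ran from -0.62 to 2.97 early and from -7.52 to 2.42 late in mean level over 11 genes.

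**Figure D4:**
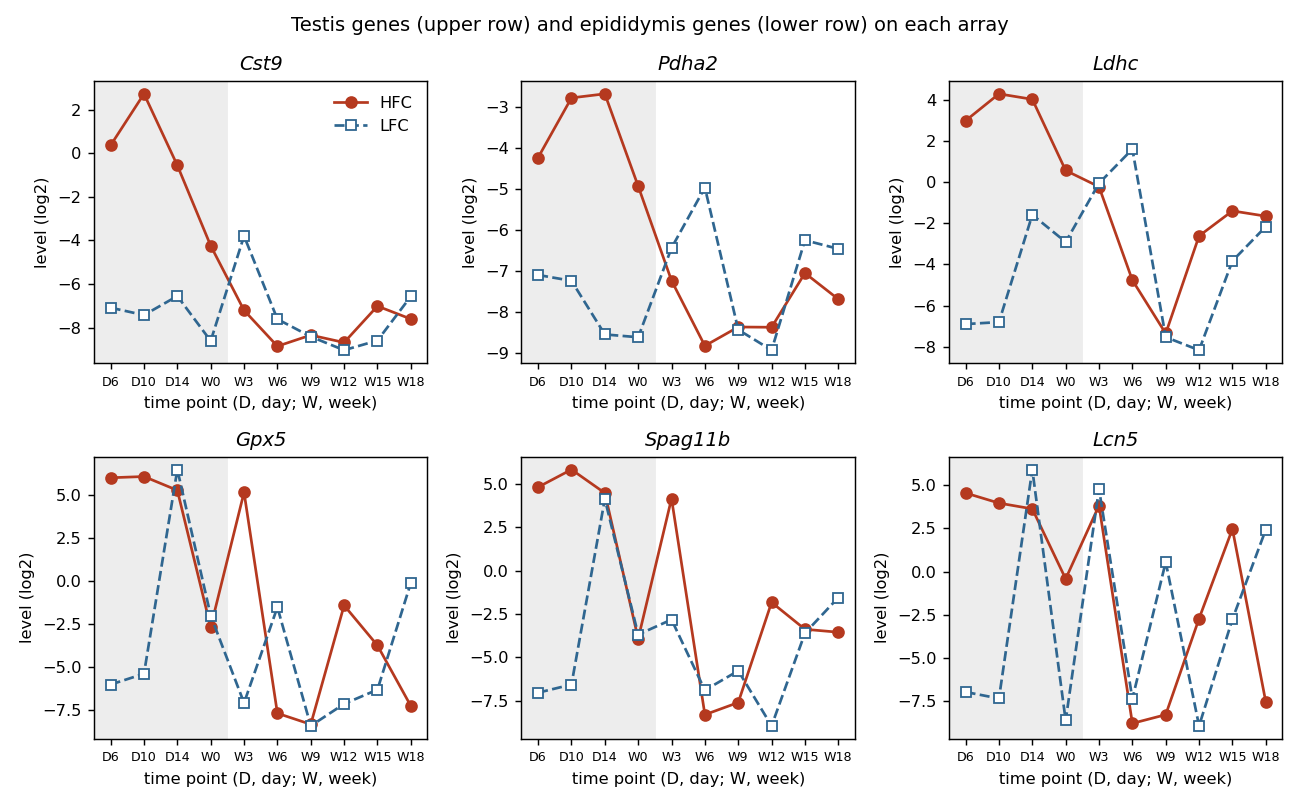
Level (log2) of 3 testis genes (upper row) and 3 epididymis genes (lower row) on each array of HFC (filled) and LFC (open), with early arrays shaded. On HFC arrays the testis genes are high from D6 to D14, between at W0 and low at W6 and W9, while the epididymis genes are high at D6 to D14 and again at W3.

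Muscle genes stood among the genes of smallest p that were higher late. Fewer probes were higher than lower late at an unadjusted p below 0.05 with the 75th percentile scaling, but under normexp 9739 were higher and 711 lower, and among probes well above background on every array 1034 were higher and 1063 lower. Neb, the giant ruler protein of the muscle thin filament, was at -8.06 at D6, -7.20 at D10, -7.84 at D14 and -6.45 at W0 and in 5 late arrays had a lowest level of -5.63 (W18), a median of -4.52 and a highest of -2.98 (W9). Its difference was 3.00 (SE 0.54), limma adjusted p 0.0929, and all 3 of its probes were higher late. Tcap, a titin-binding protein, went from -2.34 ± 0.65 (SD, n = 4) to 0.14 ± 0.96 (SD, n = 5). Tnnt3, the fast troponin T, was at -4.97 at D6, -4.38 at D10, -4.87 at D14 and -4.76 at W0 and then at -1.97 at W3, 1.67 at W6, 0.80 at W9, -2.08 at W15 and -3.85 at W18, without overlap. W6 and W9 held its 2 highest levels. Myh4, a fast myosin, differed by 4.61 (SE 1.62) and was brightest at W9 (3.67). Over the skeletal muscle list 2 of 12 were higher at an unadjusted p below 0.05 and 0 lower, with a median of 1.27, and 9 of the 12 were higher late (8 under quantile normalization, and 8 of 12 above the shifted median of all probes under normexp). Its mean level was -2.29 at D6, -2.01 at D10, -2.03 at D14 and -2.36 at W0 early. The late values were -1.31 at W3, 0.65 at W6, 0.49 at W9, -1.99 at W12, -2.03 at W15 and -2.61 at W18, so W3, W6 and W9 stood above the early arrays and W12 level with the highest of them (D10). In LFC the list reached 5.04 at W6.

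Apbb1ip, an adaptor of integrin activation in leukocytes, was at -1.59 at D6, -1.17 at D10, -1.52 at D14 and -0.94 at W0, and late arrays had a lowest level of -0.32 (W15), a median of 0.19 and a highest of 1.08 (W12). The difference was 1.53 (SE 0.31), limma adjusted p 0.109, while in LFC it was -0.23. Chst8, a sulfotransferase, differed by 1.59 (SE 0.32), beside 2.04 in LFC. Heatr1, a factor of ribosome synthesis, was not well above background on any early array, was at least 3.48-fold higher late, and only 1 of its 3 probes had this sign. The remaining 5 of the 10 genes of smallest p were Gm7890 and 4 other gene models, LOC640346, LOC675757, Gm11824 and EG638052, with no role known here. Gm7890 was at least 2.22-fold higher late. In the rising rank order the leading genes were Trnp1, Myl12b and Asb13 (rho 0.954 each, exact adjusted p 0.207), then LOC100047587 and Ddx5 (0.942). Trnp1, a DNA-associated protein, was at -1.66 at D6, -1.43 at D10, -0.92 at D14, -0.43 at W0, -0.52 at W3, -0.11 at W6, -0.17 at W9, 0.69 at W12, 0.42 at W15 and 1.02 at W18. Myl12b, a regulatory light chain of non-muscle myosin, ran only from 2.99 at D6 to 3.90 at W15. Ddx5, an RNA helicase, differed by 0.39 (SE 0.23). Among genes named for their slope, Yipf7 was not well above background on any early array and was at least 8.78-fold higher late, and Cops2, a subunit of the COP9 signalosome, and Abcb11, a bile salt transporter, had slopes of 0.20 (SE 0.04) and 0.16 (SE 0.03) log2 per week.

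Genes common to macrophages did not separate the periods. Of 13, 0 passed an unadjusted p of 0.05 in limma in either direction, and the median of late minus early was -0.08. Adgre1, which encodes the macrophage surface protein F4/80, was at 2.91 at D6, 2.99 at D10, 3.57 at D14 and 2.90 at W0, and late arrays had a lowest level of 0.65 (W6), a median of 2.50 and a highest of 3.76 (W9). Cd68, a lysosomal membrane protein, was at 1.63 at D6, 0.83 at D10, 0.54 at D14 and 1.05 at W0 and then at 0.01 at W3, 0.19 at W6, 1.83 at W9, 2.35 at W12, -1.41 at W15 and 2.03 at W18. The late arrays spread more widely than the early ones around a like mean, with W12 and W18 high and W15 low for Cd68. The Cd68 difference of -0.18 had an SE of 0.70. The mean of the 10 list genes measured on all 20 arrays ran from 1.09 to 1.54 early and from -0.40 to 2.22 late.

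Single genes of macrophage function differed more. Marco, a scavenger receptor of some resident macrophages, was picked after its values were seen. It was at 4.33 at D6, 2.47 at D10, 2.90 at D14 and 1.52 at W0, and from -0.99 (W15) to 0.65 (W12) late. The limma adjusted p was 0.0882. Marco is among the 5 probes called lower late under normexp (limma adjusted p 0.0371), so that value is not separate support. Gpnmb, a glycoprotein of lipid-laden macrophages, was at -2.06 at D6, -0.57 at D10, -2.32 at D14 and -1.75 at W0 and had a lowest level of -1.58 (W3), a median of -0.24 and a highest of 0.78 (W9) in the late arrays, a difference of 1.47 (SE 0.48), beside 1.39 in LFC. Mmp12, the macrophage elastase, was well above background on 1 of 4 early and 4 of 6 late arrays. Its levels were -7.87 at D6, -7.35 at D10, -7.00 at D14, -5.78 at W0, -6.88 at W3, -5.20 at W6, -2.75 at W9, -1.47 at W12, -4.43 at W15 and -4.27 at W18, a difference of 2.83 (SE 0.91) beside 0.52 in LFC, and the diets differed by 2.31 (SE 0.62, limma adjusted p 0.453). W9 and W12 held its 2 highest levels, and W9 was also the array richest in adipocyte transcripts. Hmox1, the haem-degrading oxygenase, differed by -1.87 (SE 0.54) without overlap, with W6 and W12 lowest, and by -2.62 in LFC. Over the lipid-associated macrophage list 1 of 11 was higher at an unadjusted p below 0.05, and over the inflammatory list 1 of 10 was lower, Il1a by -2.40. Of 11 alternatively activated and 21 tested chemokine genes 0 passed an unadjusted p of 0.05 in limma.

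Interferon response genes were highest at D6. Irf7, a master factor of that response, was at 2.06 at D6, -0.23 at D10, 0.25 at D14 and -0.64 at W0 and had a lowest level of -2.09 (W15), a median of -1.22 and a highest of 0.17 (W3) late, a difference of -1.51 (SE 0.55). Usp18, which damps interferon signalling, differed by -0.99 (SE 0.38). In all, 3 of 14 were lower at an unadjusted p below 0.05 and 0 higher, with a median of -0.66, while in LFC 8 of 14 were lower with a median of -1.39. The HFC count rested on D6, without which 0 were lower and 1 higher, and it was 0 of 14 without both W9 and W12. The list mean was 2.08 at D6 in HFC and 1.90 in LFC, and no other array of either diet exceeded 1.25. Among lymphocyte genes Gzma, a protease of cytotoxic cells, was at 1.28 at D6, 0.99 at D10, 1.20 at D14 and 0.78 at W0 and then at 0.26 at W3, -0.32 at W6, -1.64 at W9, 0.17 at W12, -3.81 at W15 and -0.55 at W18. All late arrays were below all early ones, W15 by far the most. The difference was -2.04 (SE 0.71), and -2.25 in LFC. Of the 18 T and NK cell genes listed, 12 were higher late and 6 lower, with a median of 0.27. Gzma was the 1 gene of them without overlap, beside 2.08% of all probes lower late without overlap. Il7r, a receptor of resting T cells, had a difference of 1.74 (SE 0.78), with W6 and W12 highest. B cell genes had a median of 1.25 with 1 of 10, Jchain, at an unadjusted p below 0.05, and their mean was 1.79 at W6 and -0.39 or lower elsewhere.

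Other cell types also marked single late arrays. Adipocyte genes had a mean of 5.11 at W9 and of at most 3.09 (D6) elsewhere, and Lep, the adipocyte hormone leptin, was at 5.01 at W9 and at -1.71 or lower on the other HFC arrays. On the same array immediate early genes, which are switched on by handling and dissociation of cells, had a mean of -0.07, beside 3.16 or more on all other HFC arrays. LFC W9 and LFC W12 showed the same pair of values, at 5.16 and 4.97 for adipocyte and -0.43 and -0.37 for immediate early genes. Mesothelial genes, of the lining of the fat pad, had a mean of -4.57 at W6 and between 0.34 and 2.62 on the other HFC arrays. What part these values have in the results was not tested. Without W9 and W12 the counts were as follows: 14 of 21 mitosis, 8 of 22 DNA replication, 12 of 18 matrix, 6 of 10 imprinted and 1 of 12 epididymis genes were lower at an unadjusted p below 0.05. Of all 40 lists, the medians of late minus early in HFC ran from -3.77 (epididymis) to 1.27 (skeletal muscle).

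**Figure D5:**
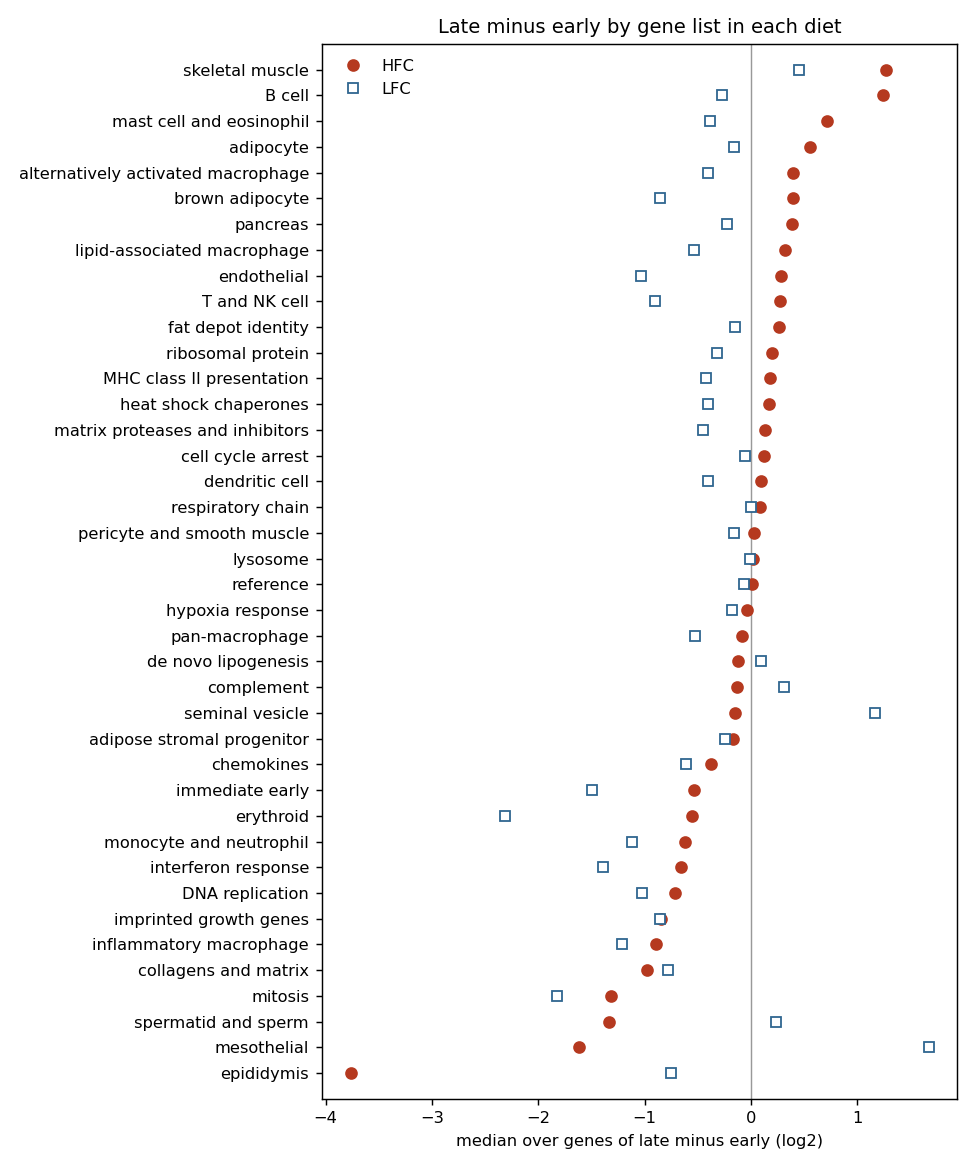
Median over the genes of each of 40 lists of late minus early (log2) in HFC (filled) and LFC (open). Epididymis genes are lowest in HFC at -3.77, and mitosis, DNA replication, matrix and imprinted genes lie below 0 in both diets. Many lists lie on opposite sides of 0 in the 2 diets, among them mesothelial, sperm, endothelial and B cell genes.

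Within weeks 3 to 18 alone, a slope over elapsed day passed in 0 of 32913 probes by limma (lowest adjusted p 1.0). Before adjustment 557 were below 0.05. The mitosis list held 6 of these, all falling, and the DNA replication list 0. Genes named for this slope were of other kinds. Svs5, a seminal vesicle secretory protein, was at -6.42 at W6 and 6.97 at W18, the highest of its 10 levels. Hnf4a, a transcription factor of liver and gut, ran from -7.20 at W3 to -4.60 at W18 near background, and its slope turned negative under normexp, as did those of Prrxl1 and Olfr530. Smpx, a muscle protein, had a slope of 0.38 (SE 0.08) log2 per week. On the falling side Gm9058 was at 5.96 at W3 and 0.56 at W18, and LOC630855, Gm10054 and Gm6883 had slopes from -0.52 to -0.23 log2 per week. These are gene models, and probes for near-identical copies of a gene can share signal.

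Whether late minus early differed between the diets was tested over 20 arrays with the time point as a block. By limma 0 of 33066 probes passed (lowest adjusted p 0.390). Before adjustment 2608 probes were below 0.05 (7.89%). Besides the testis genes above, the genes of smallest p were Angptl8, a liver and fat hormone, at 2.80 (SE 0.41), the serpin Serpinb11 at 3.06 (SE 0.54) and the zinc finger gene Zfp369 at 4.20 (SE 0.74), all with limma adjusted p of 0.390 and higher in HFC relative to LFC. LOC100047942 and Gm8799 had 3.12 and 2.64, and LOC100046815 and Gm3443 -3.20 and -2.73, a sign that turned under normexp for both of these (0.61 each). HFC Angptl8 was high on W9 alone (-1.74, the other 4 late arrays with a value at -6.15 or lower). At an unadjusted p below 0.05 in limma, 1373 of all 33066 probes were higher in HFC relative to LFC and 1235 lower. Of the measured list genes, 4 of 12 epididymis and 2 of 10 sperm genes were lower at that level. Higher at that level were 4 of 12 endothelial, 4 of 20 ribosomal protein and 3 of 10 B cell genes. So were 3 of 18 matrix and 2 of 10 reference genes, and other lists had 1 or 0 members in a direction.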

How the data were processed

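Total RNA of epididymal stromal vascular cells was labelled with Cy3 and hybridised to 1-colour Agilent mouse arrays, 1 per diet and time point. The deposited scanner files hold the processed intensity of each spot, background-subtracted by the authors with Agilent Feature Extraction and not normalized between arrays. Here levels were taken as log2 intensity minus the log2 75th percentile of each array, with control spots and outlier spots left out and spots of a probe averaged. A probe was tested if it was marked well above background in 1 period or both on a share of arrays of 0.5 or more, and a probe with up to 1 missing array was kept. Each time point of a diet was 1 array, so the number of arrays limits the precision. Of 40628 probes, 28136 (69.3%) were named through RefSeq by accession, 1406 by synonym and 4982 by symbol, and 6104 kept the name in the file, which can be old.

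Late and early arrays, the slope over elapsed day and the diet difference were tested with limma 3.58.1 in R 4.3.3 (Benjamini-Hochberg over all probes tested, threshold 0.05), and the rank order with exact two-sided Spearman tests in Python 3.11.15 with numpy 2.4.6, scipy 1.17.1 and pandas 2.3.3. The diet difference had the time point as a block. Genes were named by a rule: the 10 of smallest p in each direction for late minus early, 5 in each direction for the other fits, and in lists up to 4 of smallest p and those without overlap. A few genes that the rule names are not reported here. A list gene was represented by its brightest probe, and list means used genes with a value on all 20 arrays. Members and lists were chosen with earlier results of these data known. The scripts were tested on simulated data. Quantile normalization, normexp with an offset of 50, other filters, array brightness, an ordinary test of each probe and leaving out arrays were tried as alternatives. The arrays of the botanical groups were not used here.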

Additional observations from a re-analysis of the deposited data

Results flagged for a closer look

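Within the early or the late HFC arrays, 17 of 188 groups of values had 1 array far from the others, where chance gives about 1 in 20. The array was W9 in 8 cases, W0 and W6 in 3 each, and D10, D14 and W18 in 1 each.

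At W9 the mean level of adipocyte genes was 5.11 (1.81 to 2.51 on the other late arrays), of de novo lipogenesis genes 3.87, of respiratory chain genes 4.55 and of brown adipocyte genes -1.11, all above the rest. On the same array immediate early genes were at -0.068, heat shock chaperones at 3.33 and pericyte and smooth muscle genes at 1.71, all below the rest. Angptl8 was at -1.74 at W9, above the other late arrays.

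W6 was lowest for mesothelial genes (-4.57) and fat depot identity genes (-4.44), and highest for Tcap (1.82). W18 had seminal vesicle genes at 6.34, against -3.90 or lower on the other late arrays. W0 stood apart from D6, D10 and D14 for Cmtm2b (-5.51) and Zpbp2 (-1.63), which were lower, and for Myl12b (3.36), which was higher. D10 was lowest of the early arrays for LOC640346 (-7.94). D14 was lowest for matrix proteases and inhibitors (0.29).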

How the results depend on the processing

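The count of probes passing late minus early in HFC was 0 in the limma fit and moved with the setting: 221 under quantile normalization, 116 under normexp, 26 with D14 and W0 averaged into 1 array and 1 with W0 as the only early array, where the single probe was Naa15. Leaving out 1 array at a time gave 0 to 148, the 148 without W0. Quantile normalization and leaving out W0 shared 98 calls, and normexp and quantile normalization 4. For every other comparison the count was 0 under all alternatives run. An ordinary test of each probe was run only for late minus early within each diet. It gave 0 calls after adjustment in both diets, with 3122 probes at an unadjusted p below 0.05 in HFC. Without the replicate block, which pairs HFC and LFC arrays by time point, the diet difference gave 0 calls and 1115 probes at an unadjusted p below 0.05, against 0 and 2608 with it. Normexp, which moved the median of all probes by 0.41 log2, gave 4041 probes at least 2-fold apart between D14 and W0 and a median of 16.1% for early pairs. It turned the sign of late minus early for Pdha2 (0.00040), Ms4a20 (0.20), Gm16506 (0.98) and Lypd9 (0.43), of the slope within weeks 3 to 18 for Hnf4a (-0.12), Prrxl1 (-0.061) and Olfr530 (-0.13), and of the diet difference for Pdha2 (0.10), Cypt4 (0.090), LOC100046815 (0.61) and Gm3443 (0.61). The cause was not tested. With W0 as the only early array, chosen after seeing the data, the DNA replication median was -0.33. The other 133 summary values and 1087 of the values of single genes kept their direction and side of the threshold. No probe passed in the main fits, so for single genes the same side only means that they again did not pass. Scan day as a block was not run, since each array of a diet had a scan day of its own.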

Other observations

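Several listed cell types had a few members at an unadjusted p below 0.05 in HFC in limma. Over all probes 3.45% were higher and 6.56% lower late at that level. Of 17 tested T and NK cell genes, Gzma and Klrb1c, a natural killer cell receptor, were lower late and Il7r higher at that level. Among 8 tested mast cell and eosinophil genes Ccr3, the eotaxin receptor, and Mcpt4, a mast cell protease, were higher, by 1.61 and 0.72 log2. Mesothelial genes had a median difference of -1.62, with Krt7, an epithelial keratin, at -1.92. Tbx15, a transcription factor of fat depot identity, differed by 2.82. Genes of the respiratory chain, the ribosome, the lysosome, complement and class II antigen presentation gave 0 members at an unadjusted p below 0.05 in limma.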
